A study of Mus musculus with 14 samples.

Results

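Lungs that had received a fired recycled carbon fibre (RCF, the fibre after firing) were compared with lungs that had received vehicle, 1 month after the material was placed in the trachea. The arrays were chosen by their labels, 3 for RCF and 5 for the vehicle control, together 8 of the 14 arrays of the series. Male C57BL/6N mice were used throughout, with 1 array of whole-lung RNA per mouse. The RCF mice had received 200 µg of fibre each, and the control mice had received phosphate-buffered saline (PBS) with no fibre. The other 6 arrays came from mice given the same dose of the fibre before recycling (VCF, 3 mice) or of the fibre after carbonization (CCF, 3 mice), also at 1 month. They entered the fit and are drawn on where the 3 fibres are set side by side. The sources used here give neither the ages of the mice nor the lengths and diameters of the fibres.

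Carbon fibre is recovered from composite waste by heating, which removes the resin. Particles and fibres that reach the air spaces are taken up by alveolar macrophages, and those that are too long or too durable to be cleared can hold neutrophils and monocytes in the lung and can start the laying down of collagen by fibroblasts. Whole-lung RNA mixes epithelium, endothelium, fibroblasts and immune cells, so that a change in one cell type is diluted by the others.

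Values are log2 intensities minus the 75th percentile of the same array, so that 0 is the brightness of the 75th percentile, and levels are compared between arrays for one gene and not between genes. A difference is RCF minus control on that log2 scale (n = 3 RCF and n = 5 control arrays unless stated), the value after ± is the standard error from limma, and adjusted p is limma's with Benjamini-Hochberg adjustment over 30574 genes. The 75th percentile of intensity ran from 891 to 1831 in the controls and was 375, 2953 and 2118 in RCF 1, 2 and 3, so that RCF 1 was dim and the other RCF arrays were brighter than every control. Arrays lay on 3 slides. RCF 1 shared slide 1 with control 1 and 2. RCF 2 and 3 shared slide 3, which was scanned in a separate session, with control 4 and 5, and control 3 lay on slide 2. Defining lung genes were bright in both groups: Sftpc, the surfactant protein of type 2 cells, lay between 7.91 and 8.78 in controls and between 7.73 and 8.33 in RCF, and Ager of type 1 cells between 7.37 and 8.22 and between 7.38 and 7.70. Control 2 stood apart. The median of its basal and squamous epithelium list was 4.52 above the control mean, against −1.36 to −0.48 in the other controls, and its adipocyte list 3.80 above it, against −1.81 to 0.28.

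RCF lungs differed from vehicle lungs in 47 genes at an adjusted p under 0.05, which is 0.154% of the genes tested. Of these, 40 rose (0.131% of those tested) and 7 fell (0.0229%). A gene symbol was available for 24 of them, and 22 of these are not predicted genes: 21 rose and 1, Itpkb, fell. The 21 rises lay between 0.62 and 1.43 in log2 (1.54-fold to 2.70-fold). They included zinc finger proteins, proteins of the secretory pathway and the cytoskeleton, and signalling proteins, and no gene of the inflammatory, fibrotic or antioxidant lists was among them. At an unadjusted p under 0.05 there were 2684 genes higher (8.78%) and 1268 lower (4.15%), against a median difference over all genes of 0.06.

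The count depended on single arrays. It was 0 without RCF 2, with 3094 genes at an unadjusted p under 0.05, 12 without the dim RCF 1 and 37 without RCF 3. Leaving out a control gave 9, 55, 24, 8 and 7 genes for control 1 to 5. The balance of rises and falls depended on arrays as well. Without control 2 it was 33 higher and 22 lower, and with array weights 3154 and 2479. At an unadjusted p under 0.05 it was 2021 higher and 1533 lower without RCF 1, and 1883 and 1757 without RCF 1 and control 2. The median difference of all genes from the control mean was 0.14 in RCF 1, against 0.02 and 0.01 in RCF 2 and 3. With the slide as a fixed block 457 genes were called, the 47 among them, and in the arrays of slide 3 alone (RCF 2 and 3 against control 4 and 5) none was called, with 5220 at an unadjusted p under 0.05. In each of the 47 the difference within slide 1 and that within slide 3 pointed the same way, and no RCF array reached into the range of the controls, but the genes had been called on these arrays; over all genes tested, 11.4% did not overlap. Fpgt and Fndc3a kept their calls in 7 of the 8 omissions, Rapgef4 in 5, and no other of the 22 in more than 2.

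**Figure D1:**
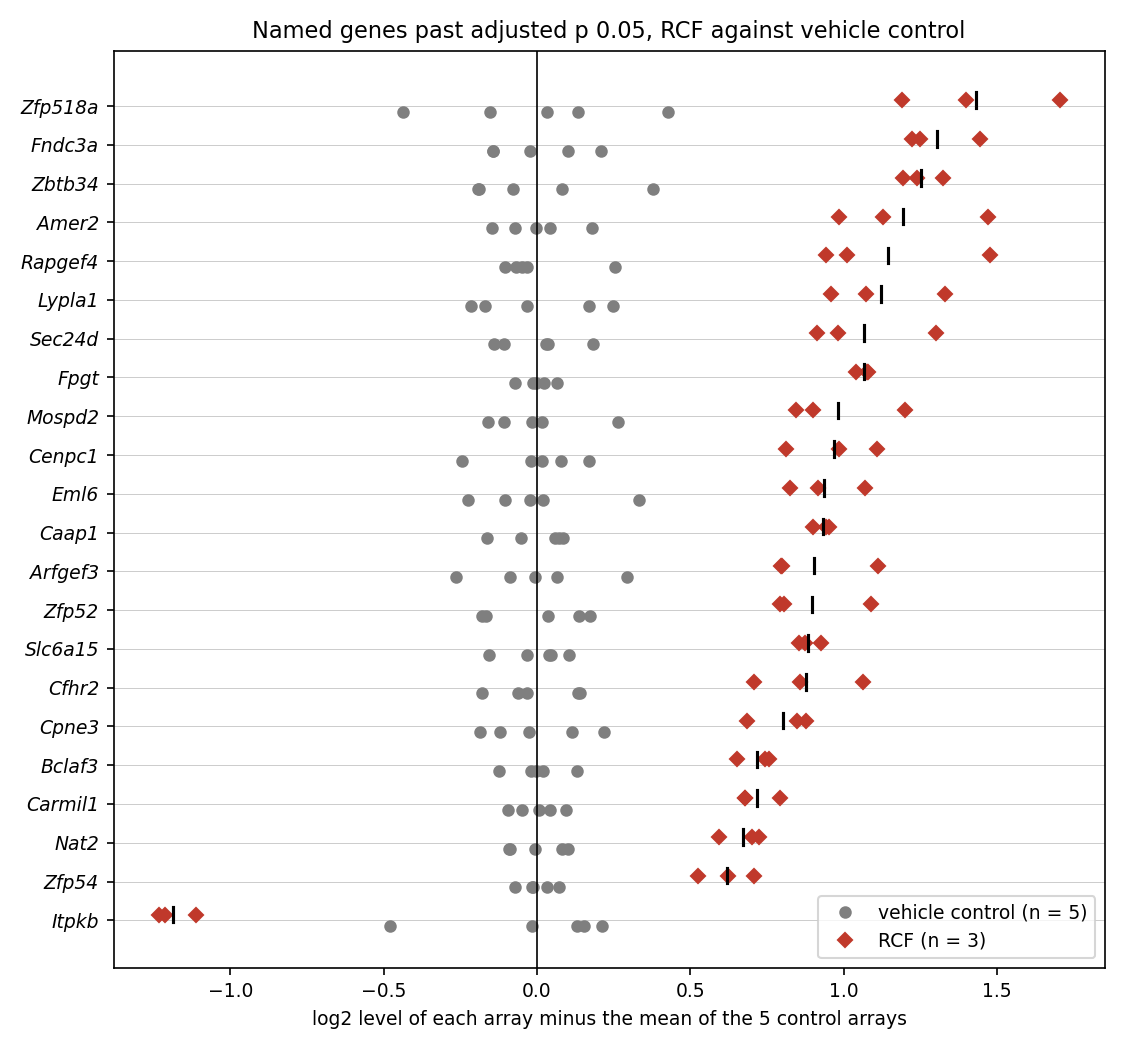
Each point is 1 array, placed by its log2 level minus the mean of the 5 controls (x axis), for the 22 named genes past an adjusted p of 0.05 (y axis); grey circles are vehicle controls, red diamonds RCF, and the short black line is the RCF mean. The 3 RCF arrays lie on one side of the 5 controls in each gene, above them in 21 genes and below them in Itpkb.

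Among regulators of transcription, the largest rise of a named gene was that of Zfp518a, a zinc finger protein of the nucleus. The controls read −5.24, −4.67, −4.37, −4.95 and −4.77, and the RCF arrays −3.09, −3.61 and −3.40. It rose by 1.43 ± 0.20 (2.70-fold, adjusted p = 0.0307). The probe was well above background in 3 of the 5 controls and in all 3 RCF arrays, so that the low end of this change is close to the limit of measurement. The highest control lay 0.76 below the lowest RCF array, and a second probe of the gene was higher by 0.66.

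Zbtb34, which joins a BTB domain to zinc fingers as many transcriptional repressors do, had levels of −3.10, −2.94, −2.64, −3.21 and −3.21 in controls and −1.78, −1.83 and −1.70 in RCF. It rose by 1.25 ± 0.18 (2.38-fold, adjusted p = 0.0312), by 1.24 within slide 1 and by 1.45 within slide 3. The RCF arrays were close together (SD 0.07) and lay 0.82 above the highest control.

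Zfp52 and Zfp54 are zinc finger genes that lie on chromosome 17. Zfp52 rose by 0.90 ± 0.15 (adjusted p = 0.0434), from between −1.81 and −1.45 in controls to −0.82, −0.83 and −0.53 in RCF. Zfp54 rose by 0.62 ± 0.10 (adjusted p = 0.0448), from between −2.58 and −2.44 to −1.80, −1.88 and −1.98. The groups did not overlap in either gene. Zinc finger genes of one cluster are similar in sequence, and how far a probe reads its neighbours was not tested. Zfp54 is 1 of 6 called genes that lay beyond the 15 largest rises and are named after their values were seen; the others are Cfhr2, Cpne3, Bclaf3, Carmil1 and Nat2.

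Of the 22 named genes, 15 had a promoter in the RefSeq table used here (GRCm38.p6; 250 bases before to 50 after the start), 17 promoters in all. The promoters of 3 of the zinc finger genes are printed because these genes rose together while their promoters differ in base composition. Capitals mark a GC box (GGGCGG, or CCGCCC when read on the other strand) and, in Zfp52, a CCAAT box (here as ATTGG, on the other strand). They stand at chr2:33431275-33431574 (minus strand) for Zbtb34, chr19:40894455-40894754 (plus strand) for Zfp518a and chr17:21535289-21535588 (plus strand) for Zfp52.
Zbtb34: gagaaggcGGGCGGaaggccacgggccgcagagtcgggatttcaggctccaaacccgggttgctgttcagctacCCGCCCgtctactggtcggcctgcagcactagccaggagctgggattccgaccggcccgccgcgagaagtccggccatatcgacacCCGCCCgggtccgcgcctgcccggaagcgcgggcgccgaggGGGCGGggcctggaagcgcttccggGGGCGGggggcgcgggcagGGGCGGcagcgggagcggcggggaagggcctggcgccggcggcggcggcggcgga
Zfp518a: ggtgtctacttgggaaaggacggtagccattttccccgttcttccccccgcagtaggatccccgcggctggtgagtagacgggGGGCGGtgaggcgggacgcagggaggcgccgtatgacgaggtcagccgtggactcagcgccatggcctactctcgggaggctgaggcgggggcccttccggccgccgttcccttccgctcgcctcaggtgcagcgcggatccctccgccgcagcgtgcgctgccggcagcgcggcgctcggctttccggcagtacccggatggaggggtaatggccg
Zfp52: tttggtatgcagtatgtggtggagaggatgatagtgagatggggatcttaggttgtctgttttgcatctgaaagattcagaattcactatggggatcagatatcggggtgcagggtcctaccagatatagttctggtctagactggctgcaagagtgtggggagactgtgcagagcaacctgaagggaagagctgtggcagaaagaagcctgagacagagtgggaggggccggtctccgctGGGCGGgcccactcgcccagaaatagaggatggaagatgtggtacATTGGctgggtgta

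The Zbtb34 promoter is 76.7% G or C with 42 CpG pairs and that of Zfp518a 70.3% with 35, whereas that of Zfp52 is 52.3% with 5. The median over the 17 promoters was 60.3% with 20 CpG pairs, against 52.7% with 7 over 32851 promoters of the same length. A GC box was found on either strand in 10 of the 17 (58.8%), against 35.7% of all promoters, and CCAAT in 8 (47.1%), against 37.4%. The 17 promoters belong to 15 genes. Those of Zfp54 overlap and hold neither box, so that this gene counts repeatedly in each share and median. The 32851 promoters were not limited to genes measured here. TATAAA, held by 13.6% of all promoters, was in 0 of the 17, as were CACGTG (7.15%) and TGACGTCA (1.79%). The GC box can lie within longer G and C runs, and these matches are a description of the letters only.

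The next 8 genes encode proteins of the secretory pathway, glycosylation, membranes or transport. Fndc3a, a membrane protein with fibronectin type III repeats, had levels of −2.46, −2.33, −2.11, −2.21 and −2.46 in controls and −1.07, −1.09 and −0.87 in RCF. It rose by 1.30 ± 0.14 (2.47-fold, adjusted p = 0.00913), by 1.33 within slide 1 and 1.35 within slide 3. The lowest RCF array lay 1.01 above the highest control. A second, dimmer probe of Fndc3a differed by −0.20, so that the rise belongs to 1 of 2 probes.

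Fpgt, which makes GDP-fucose from salvaged fucose for the decoration of glycoproteins, had the tightest values of the named rises. Controls were at −2.65, −2.51, −2.59, −2.55 and −2.58 and RCF arrays at −1.50, −1.50 and −1.54. The rise was 1.07 ± 0.11 (2.09-fold, adjusted p = 0.00913), with control and RCF standard deviations of 0.05 and 0.02. Its difference was 1.08 within slide 1 and 1.05 within slide 3, and it has 1 probe on the array.

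Sec24d, a subunit of the COPII coat that selects cargo at the endoplasmic reticulum, had levels of −0.93, −0.96, −0.78, −0.64 and −0.79 in controls and 0.10, 0.17 and 0.48 in RCF. It rose by 1.07 ± 0.16 (2.09-fold, adjusted p = 0.0375). Lypla1, a thioesterase that takes palmitate off membrane proteins, rose by 1.12 ± 0.17 (2.18-fold, adjusted p = 0.0412), from between −0.99 and −0.53 in controls to 0.30, 0.19 and 0.56. In both genes every RCF array was above every control, by 0.73 and 0.71 at the closest.

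Mospd2, an endoplasmic reticulum protein that tethers other membranes, rose by 0.98 ± 0.16 (adjusted p = 0.0433). Arfgef3, of the family of exchange factors for ARF GTPases, rose by 0.90 ± 0.14 (adjusted p = 0.0398). Slc6a15, a transporter of neutral amino acids, rose by 0.89 ± 0.12 (adjusted p = 0.0307), from between −2.46 and −2.20 in controls to −1.43, −1.45 and −1.38 in RCF. Cpne3, a calcium-dependent phospholipid-binding protein, rose by 0.80 ± 0.12 (adjusted p = 0.0398), but a second probe differed by −0.36.

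Rapgef4, an exchange factor for Rap GTPases that is switched on by cyclic AMP, had levels of −2.95, −2.96, −2.98, −2.66 and −3.01 in controls and −1.97, −1.90 and −1.43 in RCF. It rose by 1.14 ± 0.15 (2.21-fold, adjusted p = 0.0248), with 0.69 between the groups. Another 2 probes of the gene differed by −0.96 and −0.09, so that the rise holds for the brightest probe alone.

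Amer2, which brings the APC protein of the Wnt pathway to the membrane, had levels of −4.65, −4.40, −4.73, −4.54 and −4.58 in controls and −3.11, −3.45 and −3.60 in RCF. It rose by 1.20 ± 0.20 (2.29-fold, adjusted p = 0.0434). The probe was well above background in 3 of 5 controls and in all RCF arrays, and a second probe was higher by 0.73. RCF 1, the dim array, was the highest of the 3.

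Itpkb, a kinase that turns inositol trisphosphate into the tetrakisphosphate and so shapes calcium signals, was the named gene that fell. Controls were at −2.24, −2.41, −2.18, −2.26 and −2.87 and RCF arrays at −3.62, −3.60 and −3.50. It fell by 1.19 ± 0.19 on the log2 scale (2.28-fold lower, adjusted p = 0.0433). Control 5 lay nearest to the RCF arrays, 0.63 above the highest of them, and a second, dimmer probe was higher by 0.27 in RCF.

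Cenpc1, the inner kinetochore protein CENP-C, rose by 0.97 ± 0.16 (adjusted p = 0.0433), while no gene of the cell cycle list passed. Eml6, a microtubule-binding protein, rose by 0.94 ± 0.15 (adjusted p = 0.0433), and Carmil1, which regulates the capping of actin filaments, by 0.72 ± 0.12 (adjusted p = 0.0433). Caap1, an inhibitor of caspase activation, rose by 0.93 ± 0.13 (adjusted p = 0.0312), from between −2.63 and −2.38 in controls to −1.57, −1.52 and −1.51.

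Of the remaining called genes, Bclaf3 rose by 0.72 ± 0.11 (adjusted p = 0.0433). Nat2, an arylamine N-acetyltransferase, rose by 0.67 ± 0.11 (adjusted p = 0.0444), and Cfhr2, of the complement factor H family, by 0.88 ± 0.14 (adjusted p = 0.0433). Both belong to families with near-identical members, and which member a probe reads was not tested. A second probe of Cfhr2 differed by −0.08. Of the 22 named genes 13 had more than 1 probe: the other probes had the same sign in 8 and at least 1 opposite sign in 5, namely Cfhr2, Cpne3, Fndc3a, Itpkb and Rapgef4. When the mean over the probes of a gene was taken, 7 of the 22 were still called. Zbtb34, Sec24d, Fpgt, Caap1, Arfgef3 and Slc6a15 have 1 probe each, so that averaging could not change their differences. Of the 13 genes with more than 1 probe, Bclaf3 alone kept its call. In 7 of the others the difference also shrank by more than 1.5 times, to 0.65 in Mospd2 (second probe 0.31), 0.53 in Zfp52 (second probe 0.16), 0.55 in Fndc3a, 0.40 in Cfhr2, 0.22 in Cpne3, 0.03 in Rapgef4 and −0.46 in Itpkb.

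With 1 named fall past the threshold, 7 further genes are given by smallest p as values that did not pass. Ammecr1 differed by −1.22 ± 0.24 (adjusted p = 0.0719), Cbx5, the heterochromatin protein HP1α, by −1.11 ± 0.23 (adjusted p = 0.0934), and Mdm4, an inhibitor of p53, by −1.10 ± 0.22 (adjusted p = 0.0832). Maml3, a coactivator of Notch, differed by −1.05 ± 0.22 (adjusted p = 0.0877). Ehf, an epithelial ETS factor, was at −2.06, −1.92 and −1.59 in RCF and between −1.09 and −0.65 in controls (adjusted p = 0.0877). Ccdc9 was at −0.77 ± 0.14 (adjusted p = 0.0597) and Alkbh1, a demethylase of nucleic acids, at −0.60 ± 0.13 (adjusted p = 0.0923). In each of the 7 the RCF arrays lay below the 5 controls, by between 0.12 (Maml3) and 0.66 (Mdm4). The genes had been chosen by p on these same arrays. Over all genes tested, 3.78% did not overlap and were lower in RCF. Mdm4, Ehf and Cbx5 each had another probe of opposite sign.

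The fired fibre was then set beside the other 2 fibres. The 3 comparisons with vehicle share the same 5 controls, so that a value that the controls set appears in each of them. Against these controls 26 genes were called for VCF (0.085% of those tested) and 1831 for CCF (5.99%). Of the 47 genes called for RCF, 42 were also called for CCF and 3 for VCF. With the controls shared, these overlaps are not independent of one another.

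Side by side, Fpgt differed from vehicle by 1.07 with RCF, 0.52 with VCF and 0.80 with CCF, and Fndc3a by 1.30, 0.55 and 1.08. Zbtb34 differed by 1.25, 0.56 and 1.23. Mospd2 was at 0.98 with RCF, 0.09 with VCF and 0.79 with CCF. Amer2 had another order, with 1.20 for RCF, 0.85 for VCF and 0.03 for CCF. Its CCF arrays lay at −4.44, −4.32 and −4.89, one above, one below and one within the range of the controls. Cpne3, Bclaf3 and Zfp54 were larger with CCF (1.04, 1.04 and 0.89) than with RCF (0.80, 0.72 and 0.62).

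**Figure D2:**
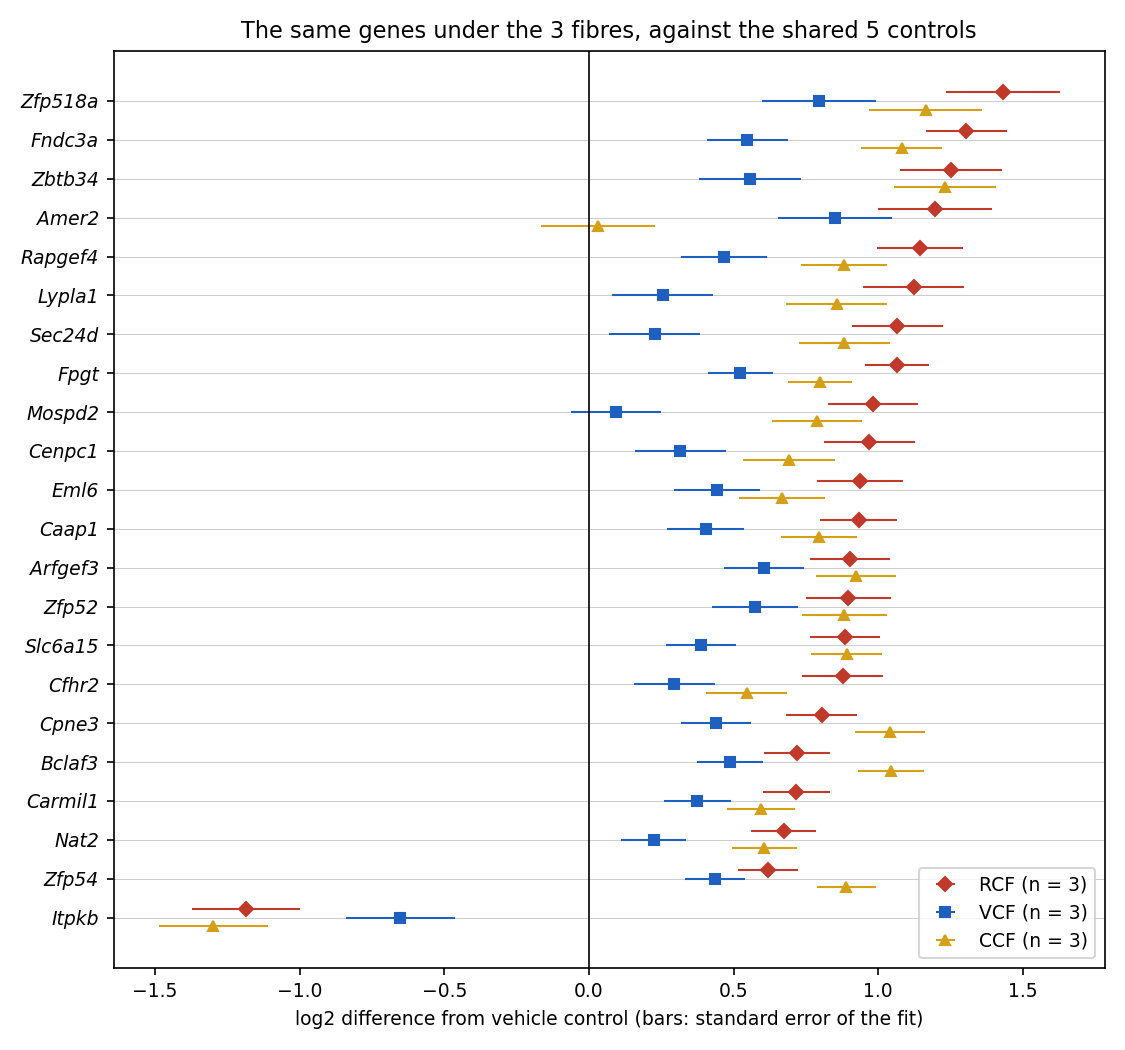
Log2 difference from the 5 vehicle controls (x axis) for the 22 named genes (y axis) with RCF (red diamonds), VCF (blue squares) and CCF (yellow triangles); bars are standard errors of the limma fit with n = 3 arrays a fibre. VCF lies nearer 0 than RCF in each gene, while CCF lies beside RCF in most and at 0.03 in Amer2.

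The direct tests between fibres, which leave the controls out of the difference, called none of the 47. Between RCF and VCF 31 of them had an unadjusted p under 0.05, where 9.05% of all genes did, and between RCF and CCF 9 did, where 9.26% of all genes did. The members were chosen on the RCF arrays, so that these shares lean toward a larger RCF value. RCF exceeded VCF in Fndc3a by 0.76 (95% interval 0.41 to 1.10, adjusted p = 0.179) and in Mospd2 by 0.89 (0.51 to 1.27, adjusted p = 0.168). In Amer2 RCF exceeded CCF by 1.16 (0.68 to 1.64, adjusted p = 0.402). For Zbtb34 the difference between RCF and CCF was 0.02, with an interval from −0.41 to 0.45, and for Zfp52 0.01, from −0.35 to 0.37, which leaves room for differences of that size in either direction.

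Over all genes, 3 passed an adjusted p of 0.05 between RCF and VCF (0.00981%), each of them higher with RCF. Adgre4, an adhesion receptor of macrophages and other myeloid cells, was at −1.23, −1.20 and −1.36 in RCF and −2.81, −2.65 and −2.52 in VCF, a difference of 1.40 ± 0.17 (adjusted p = 0.0401, n = 3 against 3). Vehicle controls lay between the fibres, from −2.36 to −1.88, with RCF higher than control by 0.81 (adjusted p = 0.0719) and VCF at −0.59 (adjusted p = 0.194). CCF arrays were at −2.21, −1.76 and −1.67.

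Ces2e, a carboxylesterase, was at −0.48, −0.65 and −0.82 in RCF and −2.21, −1.95 and −1.86 in VCF, a difference of 1.36 ± 0.15 (adjusted p = 0.0284). Kif20a, a kinesin of cell division, was at −2.13, −2.08 and −2.34 in RCF and −3.58, −3.64 and −3.32 in VCF, a difference of 1.33 ± 0.15 (adjusted p = 0.0295). In both genes RCF did not pass against vehicle, with 0.18 for Ces2e and 0.27 for Kif20a, while VCF fell below vehicle, by 1.18 (adjusted p = 0.02) and 1.06 (adjusted p = 0.0373) on the log2 scale. No gene passed between RCF and VCF without RCF 2 or without any one of the VCF arrays; 1 did without RCF 1 and 26 without RCF 3. Between RCF and CCF 1 gene passed (0.00327%), which has no symbol in the files, and 2831 genes had an unadjusted p under 0.05; omissions gave 0 to 25.

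Cell types and programmes of the injured lung were followed with 48 lists of 762 genes, of which 718 were measured. In 47 of the lists no gene passed, and the 2 genes that did, Zfp518a and Zbtb34, were put on a zinc finger list with earlier results of these data known. The median difference lay within 0.25 of 0 in 40 lists, against 0.06 over all genes.

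Neutrophils, which a persisting fibre can hold in the air spaces, showed no common shift. The list median of 16 genes was 0.03, and the RCF arrays fell apart, with medians of 0.50, 0.31 and −0.85 relative to the control mean where controls ran from −0.29 to 0.12. S100a8, a calcium-binding protein that fills neutrophils, was at 4.98, 5.08 and 3.49 in RCF and between 4.05 and 4.73 in controls, so that RCF 1 and 2 lay above and RCF 3 below all controls. Its difference was 0.11 ± 0.36 (adjusted p = 0.954). The same list had medians of 0.90 with VCF and −0.76 with CCF.

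No macrophage gene passed. The alveolar macrophage list had a median of 0.14 over 13 genes, which became 0.37 without control 2, and 4 of them were higher at an unadjusted p under 0.05, where 8.78% of all genes were. Siglecf, a sialic acid receptor of alveolar macrophages and eosinophils, was at 0.58, 0.57 and 0.71 in RCF and between −0.17 and 0.25 in controls (0.52 ± 0.15, adjusted p = 0.164). Mrc1, the mannose receptor, was at 1.83, 1.89 and 2.04 against 1.41 to 1.71 (0.40 ± 0.11, adjusted p = 0.172). The groups did not overlap in these 2 of the 13 genes, both higher, against 11.4% and 7.61% of all genes, and neither passed. Of the 13, 9 were positive and 4 negative, where 17458 of all 30574 genes were positive.

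In the list of genes of dust-laden macrophages and foreign body reactions the median was 0.12 over 13 genes. Spp1, which encodes osteopontin, was at 3.50, 3.42 and 3.59 in RCF, within the controls (3.03 to 3.81), and differed by 0.21 ± 0.24, where VCF differed by 1.57 and CCF by 0.42. Gpnmb, a glycoprotein of lipid- and particle-laden macrophages, differed by 0.12 ± 0.29. The list of monocyte and interstitial macrophage genes had a median of 0.04 over 13 genes. In it 8 genes were positive and 5 negative, where 17458 of all 30574 genes were positive. Before adjustment p was under 0.05 in 1 on the higher and 1 on the lower side (7.69% each). Of all genes, 8.78% and 4.15% did so. The highest member of the list was Ccr2, the receptor that draws monocytes from blood (0.84 ± 0.28, adjusted p = 0.218). Ccr2 was at 0.09, 0.83 and 0.08 in RCF and between −1.04 and −0.10 in controls.

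B cell and plasma cell genes were the immune list that lay furthest below the controls, with a median of −0.58 over 13 genes, 12 of them with a negative sign. At an unadjusted p under 0.05, 6 of the 13 were lower, where 4.15% of all genes were, and none passed after adjustment. The RCF arrays had list medians of −0.54, −0.44 and −0.65 and the controls ran from −0.32 to 0.23, so that the arrays did not overlap. In whole-lung RNA fewer cells of a type and less RNA per cell cannot be told apart.

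Cd79b, part of the B cell receptor, was at 4.58, 4.06, 4.27, 4.51 and 3.84 in controls and 3.49, 3.58 and 3.56 in RCF (−0.71 ± 0.19, adjusted p = 0.147). Tnfrsf17, a plasma cell receptor, differed by −1.20 ± 0.36 (adjusted p = 0.189). Beside the shared controls, the list had medians of −0.61 with VCF and −0.48 with CCF. Genes of T cells (16 genes, median −0.21) and of antigen presentation by dendritic cells (12 genes, median −0.21) were lower by less. Of the latter, 5 of 12 were lower at an unadjusted p under 0.05, where 4.15% of all genes were, among them Ccr7, the receptor that leads cells to lymph nodes, at 1.89, 2.12 and 2.32 against 2.53 to 3.01 (−0.64 ± 0.20, adjusted p = 0.206).

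Interferon-stimulated genes lay on the other side, with a median of 0.31 over 22 genes. Of these 20 were positive, as were 17458 of all 30574 genes. At an unadjusted p under 0.05, 5 were higher, where 8.78% of all genes were, and none passed. Ifi44 was at −1.26, −1.14 and −1.01 in RCF and between −2.51 and −1.61 in controls (0.80 ± 0.22, adjusted p = 0.148), and Ifit1, which binds foreign RNA, at −0.59, −0.12 and −0.16 against −1.04 to −0.80 (0.64 ± 0.20, adjusted p = 0.194). Isg15, a ubiquitin-like protein and a standard readout of interferon, was at 2.74, 2.77 and 2.50 within the controls (2.40 to 2.79). The list differed by −0.06 with VCF and 0.35 with CCF.

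Cytokines and chemokines had a median of −0.06 over 26 genes (−0.01 without control 2). Csf1, which keeps macrophages alive, was at 1.46, 1.44 and 1.08 in RCF and between 0.45 and 0.81 in controls (0.69 ± 0.18, adjusted p = 0.14). Ccl4, a chemokine for monocytes and T cells, was at −2.97, −2.49 and −2.25 against −1.77 to −1.28 (−1.02 ± 0.25, adjusted p = 0.125). These 2 of the 26 did not overlap between the groups, where 11.4% of all genes did not.

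Type 2 cell genes had a median of −0.02 over 14 genes and array medians between −0.07 and 0.05. Ciliated cell genes had a median of 0.16 over 16, with 4 higher at an unadjusted p under 0.05, where 8.78% of all genes were. The groups did not overlap in 6 of the 16, 5 of them higher, against 11.4% and 7.61% of all genes. Gmnc, which starts the making of many cilia, was at −2.89, −3.18 and −3.52 in RCF and between −4.58 and −4.12 in controls (1.12 ± 0.23, adjusted p = 0.0839; above background in 3 of 5 controls). Rsph4a, of the radial spokes that drive the beat, was at −0.64, −0.89 and −0.99 against −1.72 to −1.34 (0.74 ± 0.16, adjusted p = 0.098), whereas Foxj1, the master regulator of ciliated cells, differed by 0.06 ± 0.21.

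Matrix genes of fibroblasts had a median of 0.03 over 24 genes (0.08 without control 2). Collagen genes Col1a1 and Col3a1 differed by 0.33 ± 0.26 and 0.03 ± 0.23, with 95% intervals from −0.24 to 0.90 and from −0.47 to 0.52. Lox, which cross-links collagen, was at 0.64, 0.65 and 0.99 in RCF and between 0.02 and 0.44 in controls (0.63 ± 0.24, adjusted p = 0.282). The lung endothelium list had a median of −0.08 over 16 genes (−0.13 without control 2), with 7 positive and 9 negative. At an unadjusted p under 0.05, 4 were higher and 1 was lower, against 8.78% and 4.15% of all genes. One of the higher genes was Ednrb, the endothelin B receptor of lung capillaries, at 0.25, 0.27 and 0.46 against −0.59 to 0.01 (0.65 ± 0.14, adjusted p = 0.0993).

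Stress programmes did not pass either. NRF2 targets, which answer oxidants, had a median of −0.05 over 20 genes (0.03 without control 2), with Hmox1 at −0.13 ± 0.18 and Nqo1 at −0.17 ± 0.28, while Nfe2l2, which encodes NRF2, was at 3.91, 4.13 and 4.14 against 3.37 to 3.75 (0.51 ± 0.19, adjusted p = 0.267). Of metal-responsive genes, the zinc importer Slc39a10 was at −1.68, −2.14 and −1.86 in RCF and between −3.45 and −2.56 in controls (1.31 ± 0.26, adjusted p = 0.0745), and the metallothionein Mt1 at 3.51, 4.09 and 4.01 against 4.28 to 4.93 (−0.68 ± 0.27, adjusted p = 0.309). The apoptosis and autophagy list had a median of 0.07 over 17 genes (0.02 without control 2). In it 10 genes were positive and 7 negative, where 17458 of all 30574 genes were positive. Before adjustment p was under 0.05 in 4 on the higher (23.5%) and 2 on the lower side (11.8%). Of all genes, 8.78% and 4.15% did so. The highest member of the list was Apaf1, the scaffold of the apoptosome, at 0.86 ± 0.19 (adjusted p = 0.0972).

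Clock genes had a median of 0.16 over 18 genes. Nr1d2, a nuclear receptor of the clock, was at 3.08, 2.81 and 2.98 in RCF and between 2.03 and 2.37 in controls (0.80 ± 0.15, adjusted p = 0.0661), while VCF differed by −0.02 and CCF by 0.95 from the same controls. The sources used here do not give the time of day of sampling, and its part was not tested. Immediate early genes had a median of −0.27 over 20 genes, which became −0.13 without control 2. At an unadjusted p under 0.05, 4 were lower, where 4.15% of all genes were, among them Jund (−0.80 ± 0.28, adjusted p = 0.237).

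Cell cycle genes had a median of −0.08 over 31 genes, where the median was −0.70 with VCF. Mki67, a marker of dividing cells, was at 0.20, 0.09 and −0.08 in RCF, within the controls (−0.16 to 0.44). Lists of neighbouring tissue varied widely between the control arrays. Heart and skeletal muscle genes had a median of −0.80 over 14 genes (−0.46 without control 2), 13 of them negative. The array medians of that list ran from −1.09 to 0.90 in controls and were −0.41, −0.42 and −1.55 in RCF. Basal and squamous genes had a median of −0.77 over 12 genes, which became 0.22 without control 2.

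**Figure D3:**
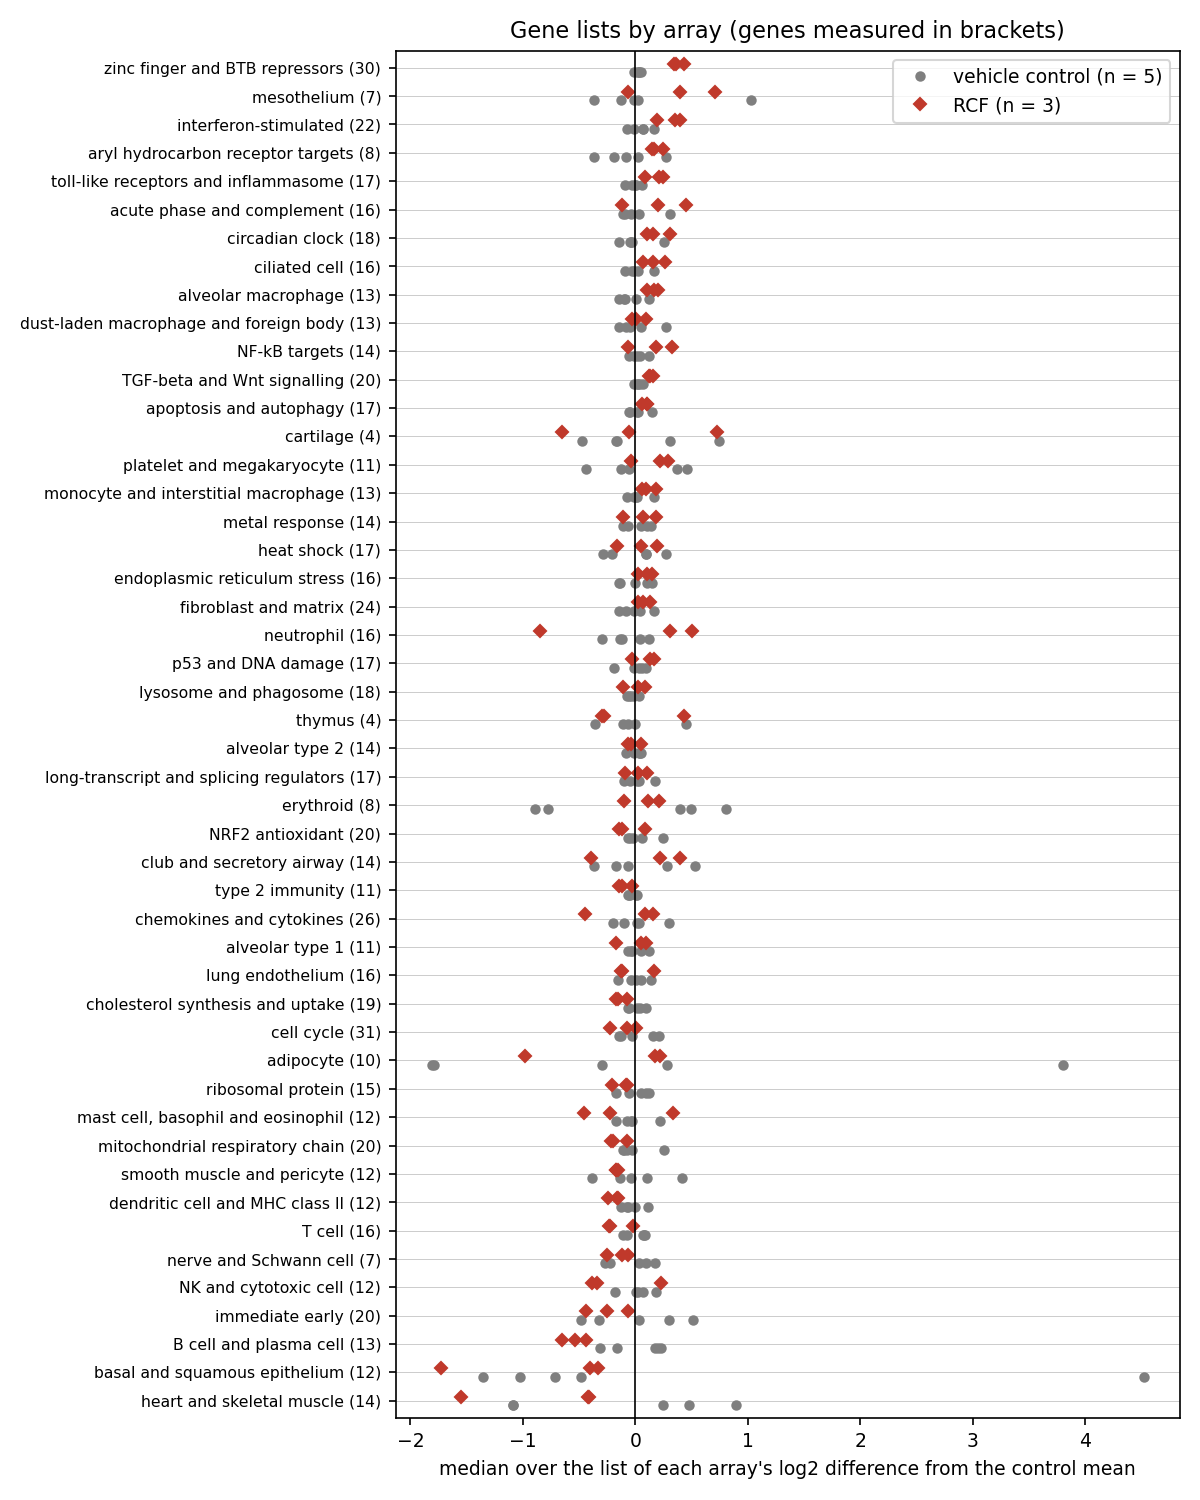
For each of the 48 gene lists (y axis, genes measured in brackets) a point gives the median over the list of one array's log2 difference from the control mean (x axis); grey circles are the 5 vehicle controls and red diamonds the 3 RCF arrays. All 3 RCF arrays lie below the 5 controls in the B cell, dendritic cell and cholesterol lists and above them in the zinc finger, interferon, toll-like receptor and TGF-beta lists, and control 2 stands far to the right in the adipocyte and the basal and squamous lists.

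Zinc finger genes were looked at as a family after the values of Zfp518a, Zfp52 and Zfp54 had been seen, by taking all 358 measured genes whose symbol begins with Zfp. Their median difference was 0.20, against 0.06 over all genes and 0.04 over all genes with a symbol. At an unadjusted p under 0.05, 95 were higher (26.5%) and 9 lower (2.51%), against 8.78% and 4.15% of all genes, and 3 rose and 0 fell after adjustment. The groups did not overlap in 78 that were higher (21.8%) and 8 that were lower (2.23%), against 7.61% and 3.78% of all genes.

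The shift was seen in each RCF array, with Zfp medians of 0.27, 0.16 and 0.15 relative to the control mean, while the control arrays lay between −0.01 and 0.04. All genes together had medians of 0.14, 0.02 and 0.01 in these arrays. Within slide 1 the Zfp median was 0.26 and within slide 3 0.17. Zfp560 differed by 1.59 ± 0.28 (adjusted p = 0.0519; above background in 2 of 5 controls and 2 of 3 RCF arrays) and Zfp758 was at −0.34, −0.93 and −0.60 against −1.83 to −1.40 (1.02 ± 0.23, adjusted p = 0.1). Zfp53 was at −0.63, −0.94 and −0.73 against −1.73 to −1.51 (0.85 ± 0.20, adjusted p = 0.118). Beside the same controls the Zfp median was 0.12 with VCF and 0.27 with CCF. Zinc finger genes share sequence, so that their probes are not independent of one another.

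**Figure D4:**
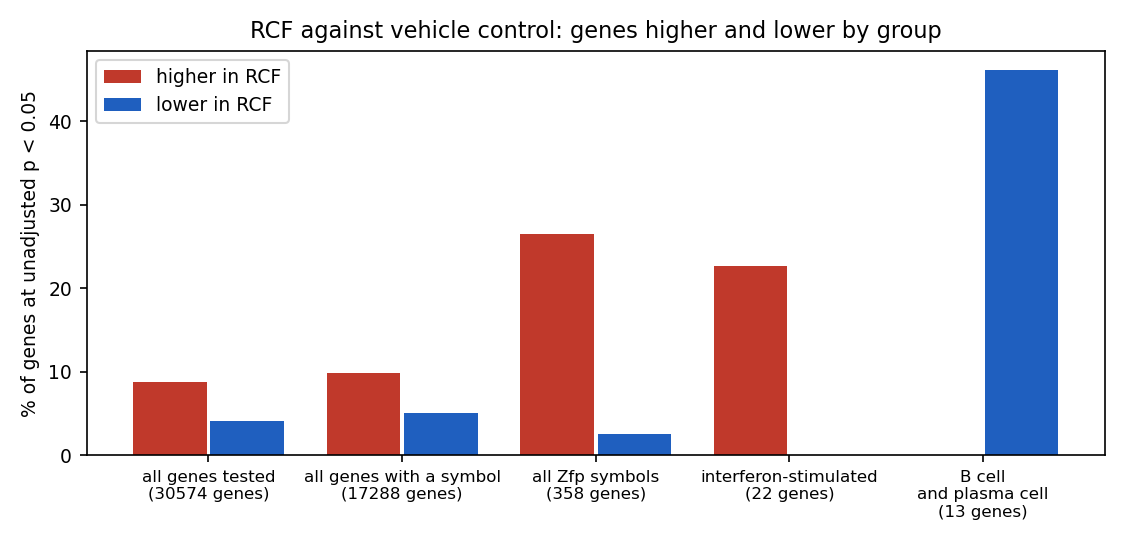
Bars give the percentage of genes (y axis, from 0) that were higher (red) or lower (blue) in RCF than in vehicle lungs at an unadjusted p under 0.05, for all genes, genes with a symbol, Zfp genes, interferon-stimulated genes and B cell genes (number of genes in brackets). Zfp genes reach 26.5% higher against 8.78% of all genes, and B cell genes are represented by 6 of 13 lower and none higher.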

How the data were processed

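Total RNA of 14 mouse lungs was labelled with Cy3 and hybridised to one-colour Agilent arrays, 1 per mouse, per the labels' protocols. Per the file headers, images were quantified by Feature Extraction 10.7.3.1. The deposited scanner files give intensity as a processed signal, which is background-subtracted but not scaled between arrays, and as unsubtracted medians of spot and local background. The authors' deposited value table holds log2 values of 32177 probes. Comparison with the scanner files showed each column to be log2 of the processed signal less 1 constant for the array, uncentred per gene and in the same direction. It is blank where a probe was not well above background. No source used here says where the constants come from, but over the 14 arrays their size had the same order as the 75th percentile of intensity. The shift was −7.61 in VCF 1, the array of lowest 75th percentile (277), and −11.02 in RCF 2, that of the highest (2953). The medians of its columns, in replicate order, were −0.17, −0.52 and −0.49 for RCF, −0.05, −0.03, −0.29, −0.50 and −0.49 for the controls, 0.30, −0.30 and −0.37 for VCF and −0.36, 0.16 and −0.34 for CCF.

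From the processed signal, log2 minus each array's 75th percentile over non-control spots was taken, outlier spots were left out and spots of a probe averaged. A probe was kept if at least 3 of the 14 arrays showed it well above background (37983 of 56605). RefSeq accessions in the array files gave 32994 probes 1 symbol and 23611 none. The probe of highest mean stood for a gene, and probes with no symbol were treated singly. Limma 3.58.1 in R 4.3.3 was fitted to all 14 arrays with 4 groups and no covariates, with two-sided moderated tests and Benjamini-Hochberg adjustment at 0.05. The 6 VCF and CCF arrays thus help to set the spread. Precision is limited by the number of arrays. The fit was tested on simulated data with known changes.

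Genes were named by a rule: the 15 largest rises and falls past the threshold with all RCF arrays on one side of the control mean (filled to 8 a direction by p, as values), at most 6 members and 3 defining markers of a list, and 5 genes each way between fibres, predicted symbols passed over. The members and the 48 lists were chosen with earlier results of these data known. Alternatives covered scaling, background correction (normexp, offset 50, on the median signal, since the mean signal was not used here), the filter on dim probes, slide and replicate blocks, array weights, the deposited values, the mean over probes, a fit of 2 groups and the omission of each array. A further 3 were chosen after seeing the data. Promoter sequences are RefSeq's on GRCm38.p6.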

Additional observations from a re-analysis of the deposited data

Results flagged for a closer look

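A value far from the others of its group was looked for among the 5 controls in 80 results, the named genes and the list medians, and 5 were found; with such a rule chance alone marks about 1 group in 20. Rapgef4 was at −2.66 in control 4, whereas the other controls lay between −3.01 and −2.95. Control 2 was apart in the other 4 results. Maml3 was at −1.61 there, against −0.88 to −0.61 in the other controls. The median of the basal and squamous epithelium list was 4.52 in control 2, against −1.36 to −0.48, that of the mesothelium list 1.03, against −0.37 to 0.03, and that of the mitochondrial respiratory chain list 0.26, against −0.11 to −0.03, each relative to the control mean. The 3 RCF arrays are too few for the same test.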

How the results depend on the processing

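The number of genes called between RCF and vehicle (47) was 6 with quantile scaling, of which 5 were among the 47, 0 without a filter on dim probes (3346 at an unadjusted p under 0.05 in limma, as for the counts of 0 below), 101 with a stricter filter, 457 with the slide as a fixed and 468 as a random block, 0 (3878) in a fit of the 2 groups, 24 with the mean over probes and 5633 with array weights, where RCF 2 took a weight of 11.9. It stayed within 1.5 times of 47 with normexp (32, of which 18 were among the 47) and with the deposited values (38, of which 32 were). The deposited values are the same processed signal less a constant per array, with dim values blank. The 38 is therefore not a check by another kind of scaling. Omission of 1 array gave 0 to 55. Alternatives chosen after seeing the data gave 0 (5220) with slide 3 alone, 1 without RCF 1 with the slide as a block, and 2 without RCF 1 and control 2. Between RCF and VCF (3) the count was 0 with quantile scaling (2681), normexp (2764), no filter (2621) and the 2 groups (2266), 7 and 2 with the slide as a fixed and a random block, and 2791 with array weights; omissions gave 0 to 26. Between RCF and CCF (1) it was 0 with quantile scaling (2534), normexp (2731), no filter (2471), the stricter filter (2450), the slide blocks (1994 and 2366), the 2 groups (2848), the deposited values (2473) and the mean over probes (2859), and 2253 with array weights; omissions gave 0 to 25. The cause of these shifts was not tested.

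Replicate numbers did not pair RCF with control arrays: the residuals of same-numbered arrays correlated at 0.16, −0.18 and 0.05. Residuals of RCF and control arrays on the same slide correlated at a median of 0.25 (0.01 to 0.50, 6 pairs), and those on different slides at −0.08 (−0.55 to 0.08, 9 pairs). With the replicate block 0 genes were called against vehicle (3865), 0 against VCF (3027) and 1 against CCF.

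None of the 22 named genes that were called against vehicle changed sign under these settings. Among them Fpgt passed in 15 and Fndc3a in 14 of 19 planned settings, and the others in 4 to 10. The B cell list median lay between −0.68 and −0.42, the interferon median between 0.23 and 0.39 and the Zfp median between 0.12 and 0.21 over the settings, whereas the neutrophil median ran from −0.21 to 0.44. The share of Zfp genes higher at an unadjusted p under 0.05 ran from 20.1% (6.47% of all genes in that fit, without RCF 1 and with the slide block) to 39.9% with array weights (17.9% of all genes). With array weights 10.1% of Zfp genes were lower, against 15.3% of all genes, and 97 rose and 20 fell after adjustment.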

Other observations

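With the slide as a fixed block in limma, further genes of the lists passed the threshold. In that fit 223 genes with a symbol rose and 32 fell. The zinc importer Slc39a10 differed by 1.47, Apaf1 of the apoptosome by 0.97, the clock receptor Nr1d2 by 0.84 and Rsph4a of the ciliary spokes by 0.79. Without the block the differences were 1.31, 0.86, 0.80 and 0.74, and their adjusted p was 0.0745, 0.0972, 0.0661 and 0.098. For these 4 genes all 3 RCF arrays lay above every control, but the genes had been called on these arrays. Over all genes tested, 7.61% did not overlap and were higher in RCF. Nktr, a cyclophilin-related protein, differed by −1.16 with the block and by −1.05 without it (adjusted p = 0.202). RCF 2 and 3, at 1.19 and 1.38, lay above control 2, at 1.07. Eda2r, of the p53 and DNA damage list, also rose with the block. That list had a median of 0.03 over 17 genes without the block (0.08 without control 2), and none of its genes passed there.

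Of the 30 genes on the zinc finger and BTB list, 7 rose with the block and 0 fell. Of the 358 genes with a Zfp symbol 30 rose and 0 fell, where 389 rose and 68 fell among all 30574 genes. Zfp758 differed by 1.02 and Zfp930 by 0.72 in that fit. Zfp560 differed by 1.57, but its probe was well above background in only 2 of the 5 controls and 2 of the 3 RCF arrays. Without RCF 1, with the block kept, 0 Zfp genes were called in limma; before adjustment, p was under 0.05 for 72 with a positive (20.1%, against 6.47% of all genes) and 11 with a negative difference (3.07%, against 4.27%).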
